A study of Drosophila melanogaster with 4 samples.

Results

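The epidermal growth factor receptor (EGFR) pathway carries a signal from the cell surface to the nucleus. The receptor, Egfr, recruits the adaptor Drk and the exchange factor Sos, which load the GTPase Ras85D; Ras activates the kinase Raf, and the kinase chain ends in the MAP kinase Rolled (rl). In the nucleus this kinase relieves repression by Capicua (cic) and by the ETS-domain repressor Anterior open (aop, also called Yan), while edl (also called mae) encodes a small protein that binds Yan and opposes it. In the wing disc, the larval sheet of cells that forms the adult wing and notum, the pathway is known for vein fate, growth and notum identity.

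The 9 genes Egfr, drk, Sos, Ras85D, Raf, rl, cic, aop and edl, out of the 13922 protein-coding genes on the main chromosome arms and chromosome 4, were taken by symbol for their place in this pathway, and all 9 were found in the dm6 gene table. At each, the deposited peaks of anti-GFP CUT&RUN were counted over the gene span and 10 kb on each side. CUT&RUN uses an antibody-bound nuclease to cut out DNA at the sites the antibody marks. Osa is a subunit of the Brahma complex, the SWI/SNF-type nucleosome remodeler of the fly, and marks its BAP form. The 2 Osa-GFP libraries came from wing discs of that genotype, in which Osa carries GFP; the labels do not say more about the allele. The 2 yw libraries, from discs with no GFP, show where the same antibody gives peaks without its target. All discs were from female wandering third-instar larvae raised at 25 °C, with 20 to 22 discs pooled per library. The labels do not say whether replicates came from separate crosses, so their spread may be technical. A peak list holds no measure of expression, so the tissue label was not checked against marker genes.

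Osa-GFP replicate 1 had 5820 peaks and replicate 2 had 4987, against 774 in yw replicate 1 and 4535 in yw replicate 2; pairs of values below keep this order of replicates. The caller's background, in fragments per position as recovered from its folds, was 0.472 and 0.460 for Osa-GFP, against 0.120 and 0.481 for yw. yw replicate 1 was therefore the shallow library, and a peak missing from it carries little weight. The lowest called fold, summit fragments over this background with 1 added to each, lay between 3.38 and 3.57 in the 4 lists. That was a summit of 4 fragments in each library but yw replicate 1, where it was 3, so a weaker yw signal would not be listed. Folds are the authors' caller's own values; they are given side by side, Osa-GFP before yw, and were not tested between lists.

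Peaks of the 4 libraries that shared 1 bp or more were merged into regions. Where both Osa-GFP libraries had a peak and neither yw library did, the region is called Osa-GFP-specific. Where both Osa-GFP libraries and at least 1 yw library did, it is called shared. The 9 windows held 69 regions, of which 26 were Osa-GFP-specific, 14 shared, 10 yw-only and 16 of 1 Osa-GFP library alone. The last 3 held a peak of 1 Osa-GFP library and of a yw library. Of the specific regions, 22 lay at Egfr, Raf, cic and aop, and all 14 shared regions lay at these 4 genes. The other 5 genes, drk, Sos, Ras85D, rl and edl, held the remaining specific regions, which were at Sos and edl.

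Of the 9 genes, 6 had at least 1 specific region in the window, where 15.9% of all protein-coding genes did. Counting only the gene span, 5 of 9 had one, against 4.55% of all genes. Shared regions lay in 4 of the 9 windows, against 17.7% of all genes. Specific regions numbered 0.625 per 10 kb over the 9 windows and 0.134 per 10 kb over the joined windows of all protein-coding genes. Long genes offer more room: of genes with a span of 20 kb or more, 42.6% had a specific region and 39.8% a shared one, and of shorter genes 13.8% had a specific region. Among the 9 genes, 4 of the 5 with a span of 20 kb or more had a specific region (all but rl) and 2 of the 4 shorter ones. Without yw replicate 2, the deep control, the 26 specific regions became 40, that is every region with peaks of both Osa-GFP libraries.

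**Figure D1:**
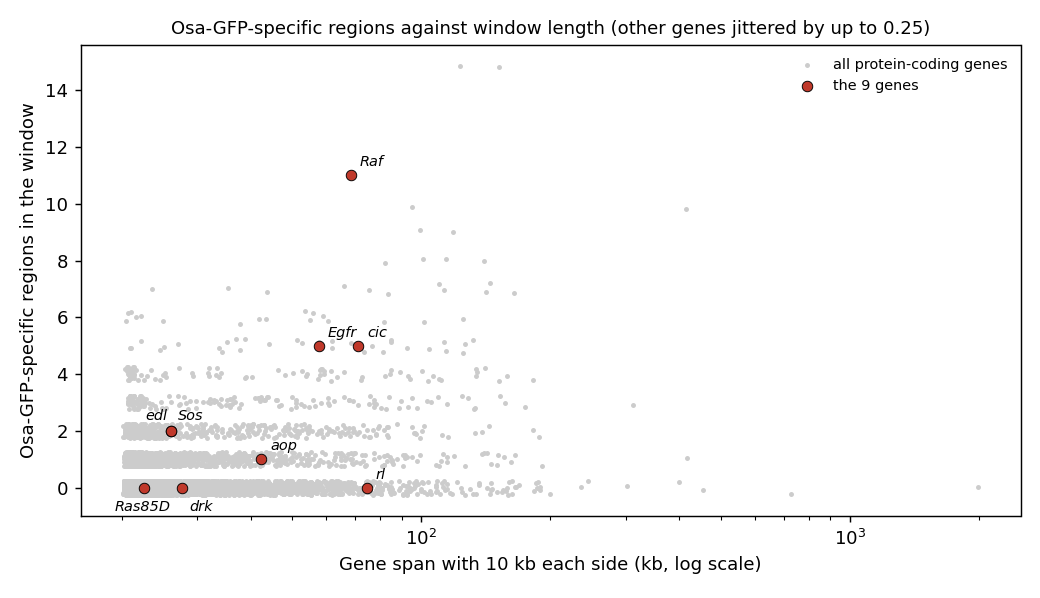
Number of Osa-GFP-specific regions (y axis) against the length of the gene span with 10 kb on each side (x axis, kb, log scale) for each of the 13922 protein-coding genes (grey, jittered vertically) and the 9 pathway genes (red). Raf, with 11 regions, stands above genes of like length, Egfr and cic have 5 each, and rl, with the longest window of the 9, has 0.

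Over the 9 windows together, the Osa-GFP libraries had 51 and 52 peaks, against 4 and 26 in the yw libraries. As a share of each library's list, this was 0.876% (95% Wilson interval 0.667% to 1.15%) and 1.04% (0.796% to 1.36%) in Osa-GFP, against 0.517% (0.201% to 1.32%) and 0.573% (0.392% to 0.839%) in yw. Both Osa-GFP values lay above both yw values, by counts and by shares, though the intervals of the shares overlapped; they cover counting error only, and neighbouring peaks are not independent. The mean difference was 36.5 peaks, with a two-sided exact permutation p of 0.333, the smallest that 2 libraries against 2 can give, so the design cannot pass a usual threshold. Lists were also made equally long, at the 774 peaks of best q in each library. The windows then held 10 and 9 peaks in Osa-GFP, against 4 and 8 in yw, a mean difference of 3.5. By the same rule 4 regions then counted as specific, at 3 of the 9 genes, Egfr, Raf and aop. Of these, only the Egfr region from 21541162 to 21541575 was specific in the full lists. The others were shared there, and their yw replicate 2 peaks fell below the cut.

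Gene by gene, 5 of the 9 had more peaks in both Osa-GFP libraries than in either yw library: Egfr, Raf, cic, Sos and edl. This held for 11.9% of all protein-coding genes and for 29.6% of those with a span of 20 kb or more. The reverse, fewer peaks in both Osa-GFP libraries, held for 0 of the 9 and for 1.87% of all genes. At aop, drk, Ras85D and rl the peak numbers of the genotypes overlapped or were tied.

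**Figure D2:**
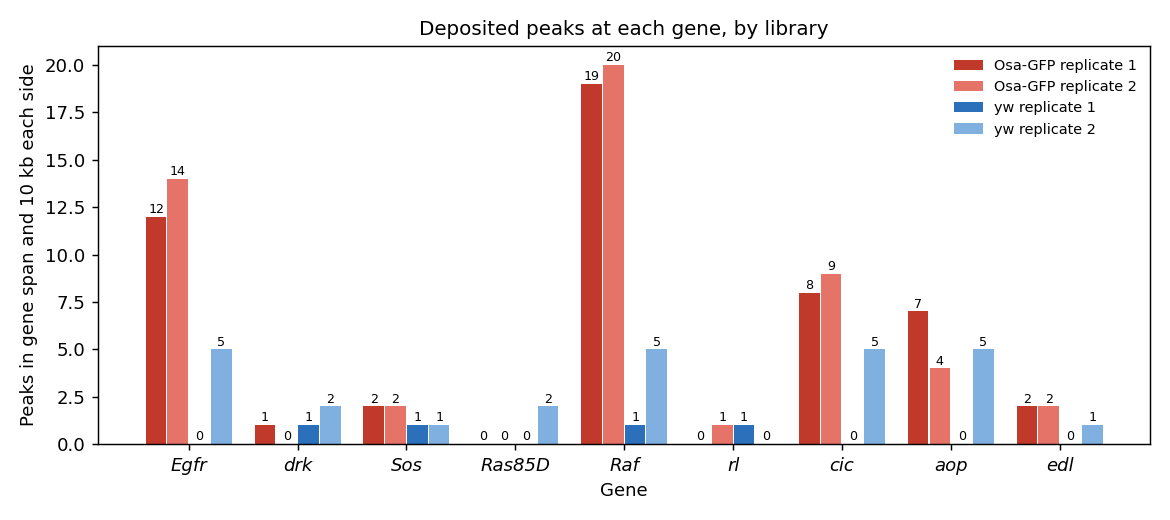
Number of deposited peaks (y axis) in the gene span and 10 kb on each side at each of the 9 genes, in receptor-to-nucleus order, with 1 bar per library (Osa-GFP replicates 1 and 2 in red, yw replicates 1 and 2 in blue). Raf and Egfr have 12 to 20 peaks in the Osa-GFP libraries and at most 5 in a yw library, while drk, Sos, Ras85D, rl and edl have 0 to 2 in every library.

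At the receptor gene Egfr (CG10079), on 2R at 21522420 to 21559977, there were 12 and 14 peaks in the Osa-GFP libraries, against 0 and 5 in the yw libraries. All of them lay inside the gene span. Osa-GFP peaks covered 12.1% and 11.6% of the window, against 0% and 3.01% for yw. The genotypes did not overlap in either measure. Merging gave 5 specific and 5 shared regions, and 0.517% of all protein-coding genes had as many specific regions or more. Leaving out Osa-GFP replicate 1, so that a peak of replicate 2 alone sufficed, gave 9 specific regions at Egfr. Leaving out yw replicate 2, so that only yw replicate 1 could remove a region, gave 10.

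The strongest Egfr region was shared, from 21541598 to 21543486. Its folds were 23.1 and 16.4 for Osa-GFP and 6.75 for yw replicate 2. Those folds stand for 33, 23 and 9 fragments at the summit. Directly beside it, without overlap, lay a specific region from 21541162 to 21541575, with folds of 21.1 and 13.7. With peaks up to 500 bp apart merged Egfr had 2 specific regions, and it also had 2 by nearest gene end and with lists of equal length. With equal lists these were the strongest region, whose yw replicate 2 peak fell below the cut, and the specific region beside it. The shared region nearest the lower-coordinate end of the gene, at 21523548 to 21524641, was centred 1674 bp inside the span and had folds of 15.6 and 13.7 in Osa-GFP and 10.1 in yw replicate 2. Further along lay a specific region at 21551011 to 21552077 (16.3 and 10.3). A shared region followed the strongest one at 21545177 to 21545768, with folds of 12.2 and 10.3 in Osa-GFP and 4.73 in yw replicate 2. A specific region stood at 21547090 to 21547356 (9.51 and 11.0). The specific region beside the strongest one was centred 795 bp from an end of CG30283, a gene within the same window. The 5 Egfr regions of 1 Osa-GFP library alone were 122 to 156 bp wide, with folds of 3.42 to 6.12.

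The adaptor gene drk (CG6033), on 2R at 13495222 to 13502841, encodes the Grb2 protein of the fly. It had 1 and 0 peaks in the Osa-GFP libraries, against 1 and 2 in the yw libraries. No region held peaks of both Osa-GFP libraries. At its upper-coordinate end, from 13502538 to 13502873, lay a region that both yw libraries marked and neither Osa-GFP library did, with folds of 8.03 and 8.10, in the same stretch where drk overlaps the gene mars. A further yw replicate 2 peak lay 66 bp outside the other end of the span, within bbc (6.08). The drk window thus held peaks without GFP at both ends of the gene, and its 1 Osa-GFP peak, with 4 summit fragments, was at the lowest fold of that list.

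Sos (CG7793), on 2L at 13813816 to 13819824, encodes the exchange factor that loads Ras with GTP. Its window had 2 and 2 peaks in the Osa-GFP libraries, against 1 and 1 in the yw libraries, and none lay inside the gene span. Both specific regions lay within the neighbouring gene CAH1, 8812 and 9667 bp from Sos, with folds of 6.12 and 5.48 for the nearer and 4.76 and 5.48 for the farther region. The second of these was the specific region closest to the inner edge of any of the 9 windows, and with 5 kb on each side Sos had 0. Just beyond the 10 kb limit, the nearest specific region of any of the 9 genes lay 10142 bp from Egfr (folds of 8.15 and 4.79), and 4 others lay 16502 to 18806 bp from Raf, Sos and edl. A yw replicate 2 peak lay 57 bp from the lower-coordinate end of Sos, inside CG16865 (5.40).

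Ras85D (CG9375), on 3R at 9510561 to 9513067, encodes the GTPase at the centre of the pathway and is the shortest of the 9 genes. It had 0 and 0 peaks in the Osa-GFP libraries, against 0 and 2 in the yw libraries. One yw replicate 2 peak lay in the gene, centred 102 bp from its upper-coordinate end (4.05), and the other lay 7801 bp away, centred 105 bp from an end of RhoL (6.08). At this depth, a summit of fewer than 4 fragments in the Osa-GFP libraries would not have been listed. Like Ras85D, 75.9% of all protein-coding genes with a span under 20 kb had no region with peaks of both Osa-GFP libraries.

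Raf (CG2845), on X at 2295466 to 2343870, encodes the kinase that Ras activates. It had the most peaks of the 9 genes, 19 and 20 in the Osa-GFP libraries, against 1 and 5 in the yw libraries. Osa-GFP peaks covered 14.2% and 12.3% of the window, against 0.225% and 2.51% for yw. The genotypes did not overlap in either measure. The window held 11 specific and 3 shared regions, and 3 genes in all, 0.0215% of the protein-coding genes, had 11 specific regions or more. The other two were the homeobox genes hth and Antp, each with 15 in a longer window. Inside the Raf span alone there were 6 specific regions. Without Osa-GFP replicate 1, when a peak of replicate 2 alone sufficed, the number in the window was 17. It was 3 at a −log10 q of 10 or more, 7 with peaks up to 500 bp apart merged, 6 by nearest gene end and 1 with lists of equal length. The q limit and the equal lists dropped yw peaks as well. The 3 thus included the region at 2300360 to 2302809, shared in the full lists, and with equal lists it was the only one counted.

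The Raf regions were bunched at the lower-coordinate end of the gene. When regions with peaks of both Osa-GFP libraries were chained across gaps of 5 kb or less, a rule chosen after the loci were seen, 11 of them formed a run of 17763 bp from 2289181 to 2306943, with 10 specific and 1 shared. Across the arms there were 1831 such runs with a median of 1 region, and this was the only one with 11 or more. The Egfr run from 21541162 to 21554043 had 8 regions, 4 specific and 4 shared, in 12882 bp, and 18 runs had as many or more. The Raf run began inside the neighbouring gene CG2865, which 3 of its specific regions overlapped. Another 2 lay between CG2865 and Raf, the nearer 200 bp outside the Raf span, and the rest lay inside Raf.

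By the lower Osa-GFP fold, the strongest Raf region was shared, at 2300360 to 2302809, with folds of 20.4 and 13.7 for Osa-GFP and 6.08 for yw replicate 2. The specific region at 2298738 to 2299925 had folds of 21.7 and 11.0. Near the lower-coordinate end, a specific region at 2295600 to 2296866 was centred 767 bp inside the span, with folds of 11.6 and 11.6. Osa-GFP replicate 1 had 1 peak of 1214 bp there, and replicate 2 had 2 peaks over nearly the same stretch, of 689 bp (fold 8.22) and 384 bp (fold 11.6). Within CG2865, at 2289181 to 2289668, the folds were 7.47 and 7.53. Further inside Raf, a specific region at 2305903 to 2306196 had folds of 10.9 and 6.85, and another at 2321977 to 2322405 had 7.47 and 6.85. Away from the run the yw library was high: at 2317383 to 2317639 the folds were 10.9 and 5.48 in Osa-GFP and 13.5 in yw replicate 2. At 2340050 to 2340566 they were 5.44 and 3.42 in Osa-GFP and 10.1 in yw replicate 2; both were named after their values were seen. The insulin-like peptide gene Ilp6 lies inside the Raf span, and the 1 peak that overlapped it was of yw replicate 2 (5.40).

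**Figure D3:**
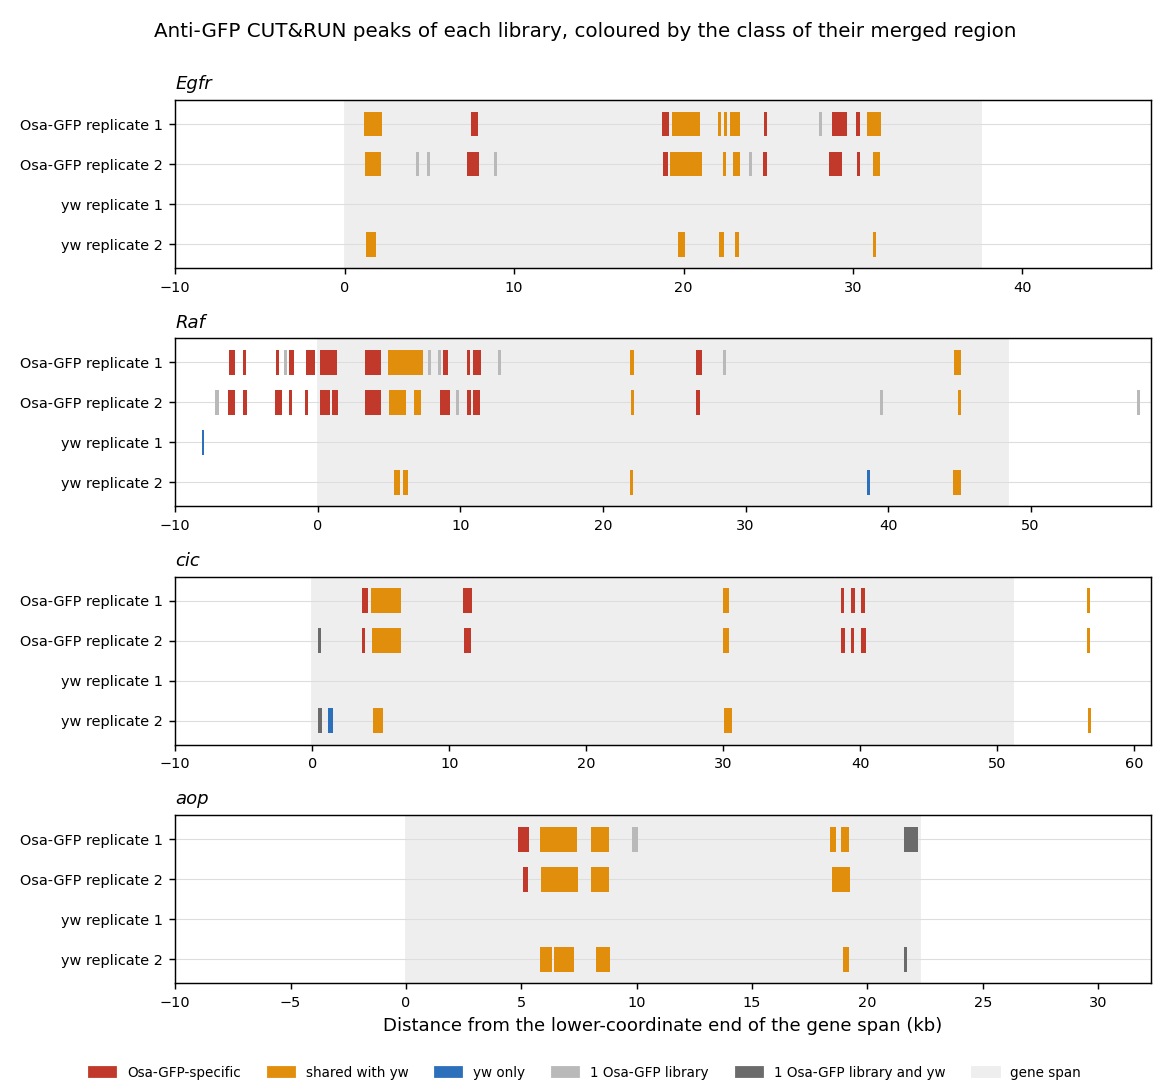
Deposited peaks of each library (rows) along Egfr, Raf, cic and aop, with the gene span shaded and the x axis in kb from its lower-coordinate end. Red marks peaks in Osa-GFP-specific regions, orange shared, blue yw-only, and light or dark grey regions of 1 Osa-GFP library without or with a yw peak. Red and orange peaks alternate in Egfr, red ones gather at the left end of Raf, and yw replicate 1 has 1 peak in these 4 windows.

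The MAP kinase gene rl (CG12559), on 2R at 1071462 to 1125927, was the longest of the 9, and lies in the heterochromatin beside the centromere. It had 0 and 1 peaks in the Osa-GFP libraries, against 1 and 0 in the yw libraries. The peaks of Osa-GFP replicate 2 (5.48) and yw replicate 1 (8.03) fell in the same region of 167 bp, at 1097785 to 1097951, and their summits were at 1097867 and 1097858. So the only rl region was also marked without GFP. Of the genes with a span of 20 kb or more, 45% had no region with peaks of both Osa-GFP libraries. Peaks were sparse in and around rl: over the span with 250 kb on each side there were 7 regions of any kind, or 0.126 per 10 kb. The same measure was 0.363 to 1.22 per 10 kb for the other 8 genes. It includes each gene's own window, which held 10 of the 20 regions for cic and 25 of the 67 for Raf.

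**Figure D4:**
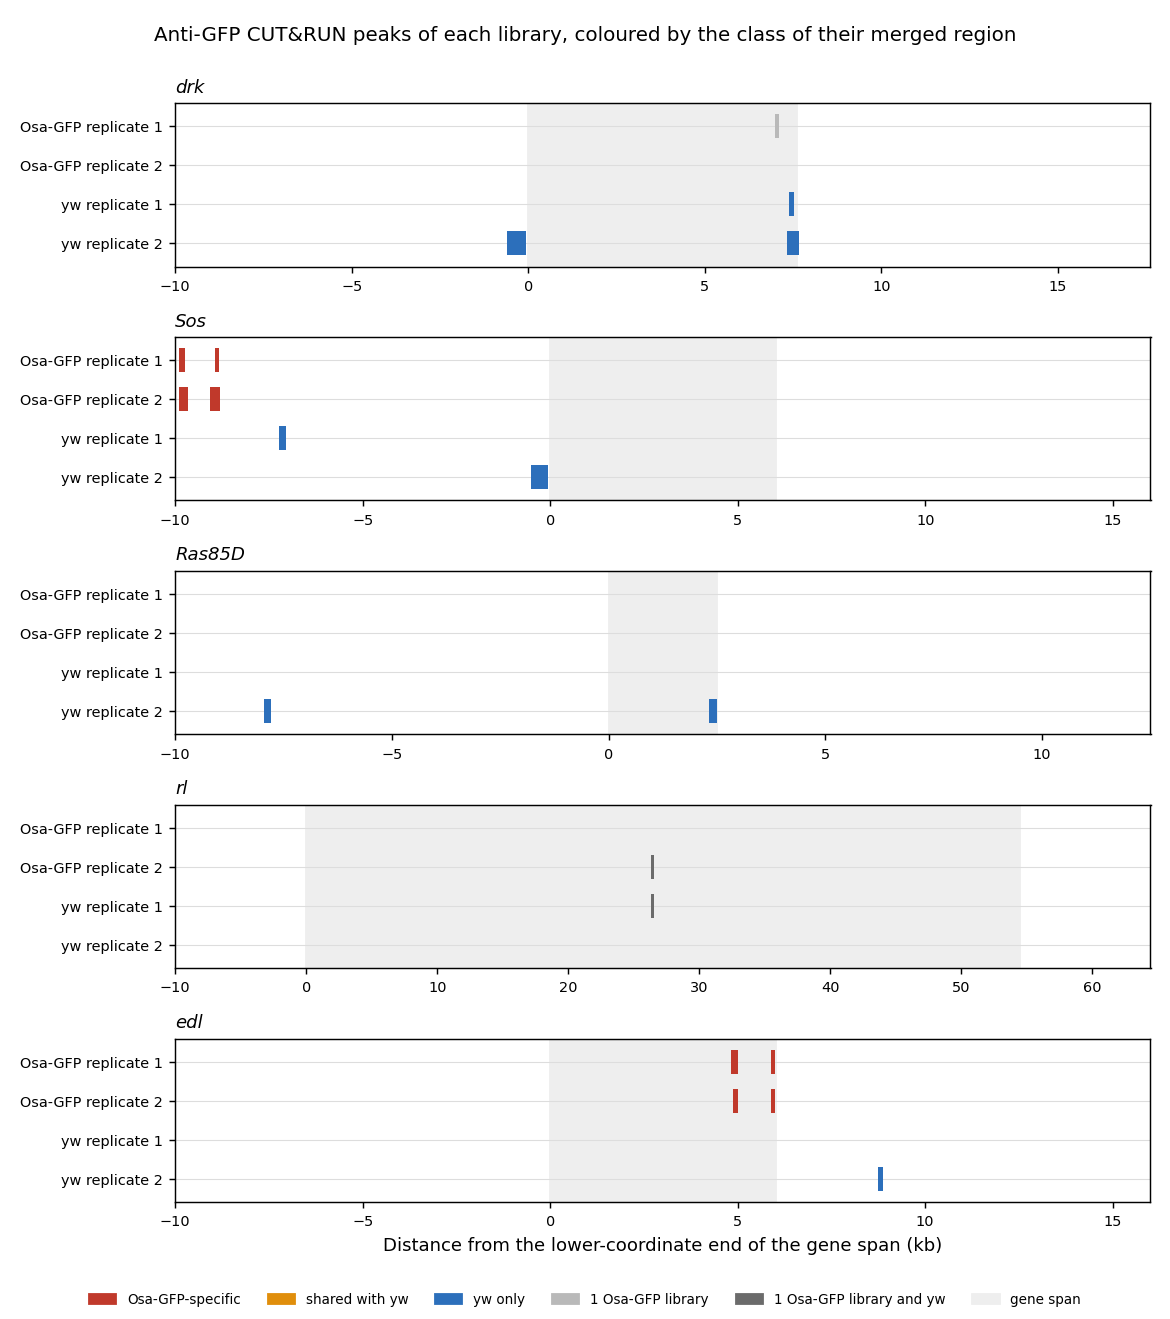
Deposited peaks of each library (rows) along drk, Sos, Ras85D, rl and edl, with the gene span shaded and the x axis in kb from its lower-coordinate end; colours as in the plot of the 4 densely marked genes. No orange peak is seen, the red peaks at Sos lie near the edge of its window, and blue yw-only peaks sit close to ends of drk, Sos and Ras85D.

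The repressor gene cic (CG43122), on 3R at 20252770 to 20303942, encodes an HMG-box protein that holds pathway target genes off until the MAP kinase signal arrives. It had 8 and 9 peaks in the Osa-GFP libraries, against 0 and 5 in the yw libraries. Osa-GFP peaks covered 6.48% and 6.23% of the window, against 0% and 2.95% for yw, so the genotypes did not overlap in either measure. There were 5 specific regions, all inside the span, and 3 shared ones. Without yw replicate 2 the specific count was 8, with peaks up to 500 bp apart merged it was 2, and with lists of equal length it was 0.

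The strongest region at any of the 9 genes was in cic and was shared, at 20257084 to 20259225. Its folds were 35.3 and 30.1 for Osa-GFP, or 51 and 43 fragments at the summit, and 15.5 for yw replicate 2, or 22 fragments. These peaks ranked 57 of 5820 and 42 of 4987 among Osa-GFP peaks and 216 of 4535 among those of yw replicate 2. The summits of Osa-GFP replicate 1 and yw replicate 2 there were at 20257372 and 20257373. A strong Osa-GFP peak at cic thus coincided with a peak from discs without GFP.

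The specific cic regions had lower folds than this one and fell in 2 places. Beside the strong region lay one at 20256383 to 20256805 (9.51 and 10.3) and, further in, one at 20263779 to 20264412 (11.6 and 8.22). Towards the other end, 3 stood in a run of 1823 bp, the strongest at 20292843 to 20293153 (8.83 and 8.90). A shared region lay between them at 20282760 to 20283370, with folds of 8.15 and 6.16 in Osa-GFP and 4.73 in yw replicate 2. Outside the span, the shared region at 20309304 to 20309602 was in Orp8, centred 109 bp from an end of that gene, with folds of 8.15 and 9.59 in Osa-GFP and 5.40 in yw replicate 2. Of all regions in the cic window, the one nearest an end of cic was centred 570 bp inside the span and held peaks of Osa-GFP replicate 2 (5.48) and yw replicate 2 (10.8).

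The ETS repressor gene aop (CG3166), on 2L at 2156484 to 2178754, had 7 and 4 peaks in the Osa-GFP libraries, against 0 and 5 in the yw libraries. The genotypes overlapped in peak number, and without yw replicate 2 aop had 4 specific regions. Osa-GFP peaks covered 10.0% and 7.95% of the window, against 0% and 5.64% for yw. Of its 4 regions with peaks of both Osa-GFP libraries, 3 were shared and 1 was specific, the reverse of the balance at Raf.

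The strongest aop region, at 2162297 to 2163944, had folds of 26.5 and 24.6 in Osa-GFP and 22.3 in yw replicate 2, or 38, 35 and 32 fragments at the summit. The Osa-GFP summits were at 2162451 and 2162435, and the highest yw replicate 2 summit was at 2163167, in another part of the region. A second, weaker yw replicate 2 peak of 498 bp (fold 10.1, 14 fragments) began at the lower-coordinate end of the region and covered both Osa-GFP summits. The site of the Osa-GFP summits was thus also marked without GFP. The next, at 2174878 to 2175735, had folds of 19.7 and 17.8 in Osa-GFP and 8.10 in yw replicate 2. The third shared region, at 2164523 to 2165341, had 10.9 and 13.0 in Osa-GFP and 8.10 in yw replicate 2. The only specific region, at 2161335 to 2161812, was the weakest of the 4, with folds of 8.15 and 4.79. It lay beside the strongest shared region, and when peaks up to 500 bp apart were merged aop had no specific region, nor at a −log10 q of 5 or more. At a −log10 q of 10 or more, a limit set on yw peaks as well, aop had 2. These were the regions at 2174878 to 2175735 and 2164523 to 2165341, both shared in the full lists.

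The gene edl (CG15085), whose product opposes Yan, on 2R at 18667527 to 18673536, had 2 and 2 peaks in the Osa-GFP libraries, against 0 and 1 in the yw libraries. Both Osa-GFP peaks formed specific regions inside the gene. The one at 18673413 to 18673534 was centred 63 bp from the upper-coordinate end, with folds of 4.08 and 4.11. The other, at 18672360 to 18672543, had folds of 4.76 and 3.42, the second value being the lowest called in that list. By the lower Osa-GFP fold these were the weakest specific regions of the 9 genes, at 4 to 6 fragments per summit, and neither was left at a −log10 q of 5 or more. The yw replicate 2 peak lay 2742 bp outside the gene (5.40).

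**Figure D5:**
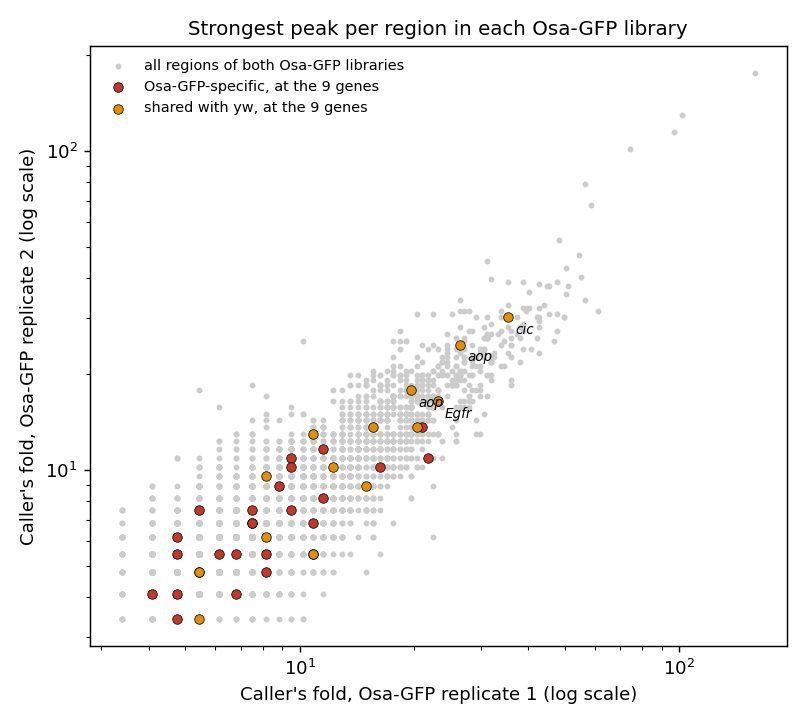
The caller's fold of the strongest peak per region in Osa-GFP replicate 1 (x axis) and replicate 2 (y axis), both on log scales, for all 3344 regions with peaks of both libraries (grey) and for the 26 specific (red) and 14 shared (orange) regions at the 9 genes; equal values lie on top of each other. The strongest shared regions of cic and aop lie highest among the 9 genes, and no specific region passes 13.7 in replicate 2.

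The 40 regions with peaks of both Osa-GFP libraries were set beside the 3344 of the whole data. Specific regions at the 9 genes had a median width of 418.5 bp, against 402 bp over all 1765 specific regions, and the median of the lower Osa-GFP fold was 6.16, against 6.12. Shared regions had a median width of 815 bp, against 661 bp over all 1579, and a median lower fold of 10.6, against 8.83. For the specific regions both medians lay close to those over all. Their lower folds ran from 3.42 to 13.7, and over all specific regions they reached 38.3.

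At these genes most peaks of one Osa-GFP replicate met a peak of the other. Of the 51 peaks of Osa-GFP replicate 1 in the windows, 41 (80.4%) overlapped a peak of replicate 2, against 60.3% over the whole list. In the other direction it was 42 of 52 (80.8%), against 71.6%. Summits of the replicates lay 100 bp or less apart in 29 of the 40 regions (72.5%), against 67.9% over all, with a median gap of 49 bp, against 55 bp. In the shared regions the summit of yw replicate 2 lay a median of 46.5 bp from that of Osa-GFP replicate 1, against 87 bp over all shared regions. These shares describe the lists and were not tested, since peaks are not replicates.

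Most regions with peaks of both Osa-GFP libraries were away from gene ends. Of the 26 specific regions, 3 (11.5%) had their centre 500 bp or less from where a protein-coding gene starts or ends, against 10.4% over all specific regions, and these genes were edl, CAH1 and CG2865. Of the 14 shared regions 1 lay so close to a gene's end, that of Orp8, against 16.7% over all shared regions. Of the 10 yw-only regions 5 did, at ends of bbc, drk, CG16865, RhoL and Ras85D, against 33.2% over all yw-only regions. At least 1 yw-only region lay in the windows of drk, Sos, Ras85D, Raf, cic and edl, and 43.5% of all protein-coding genes had one. Of the specific regions, 5 (19.2%) lay 500 bp or less from a shared region, against 10.1% over all specific regions.

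Other genes of the pathway were counted in the same way. Of all protein-coding genes, 15.9% had a specific region and 17.7% a shared one, and 10260 of 13922 had neither. Of 12 further genes of the Ras cascade and its regulators, 3 had a specific region and 5 a shared one. The MAP kinase phosphatase gene Mkp3 had 4 specific regions, the strongest on 3L at 19078739 to 19079476 (8.83 and 8.22), and 6 of the 12 genes had neither kind. Of 12 genes for ligands, their processing and induced feedback, 8 had a specific region and 7 a shared one; sty, an inhibitor of the pathway, had 3, with the strongest at 13.6 and 15.1. The ligand-binding antagonist gene aos, the ligand-processing protease gene ru and the ETS activator gene pnt had 2 each. The median span was 22271 bp for the 9 genes, 6107.5 bp for the cascade list and 13687.5 bp for the ligand and feedback list, so the lists differ in the room they offer and were not tested against each other.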

How the data were processed

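Each library is 1 deposited narrowPeak list on dm6. The submitters' processing notes name MACS2 2.1.2, Picard 2.2.4, Bowtie2 2.3.4.1, deepTools 2.4.1 and SAMtools 1.10. Each list names 1 library, so replicates were not pooled, and its peak names have tags for trimming, mapping quality and duplicate removal. The calling threshold is not given in the sources used here. A peak's deposited fold is a ratio of summit fragments to background made by the authors' caller, and its deposited p-value and q-value are on a −log10 scale. The deposited integer score was not used. The other deposited value, the summit offset, is a position. Folds were whole multiples of 1 step per list (100% of peaks, tolerance 0.01 fragments), which gave summit fragments and the background.

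Regions were merged, classed and assigned in Python 3.11.15 with pandas 2.3.3, and the code was checked on simulated peaks. Gene spans came from the RefSeq table of the same assembly, without strand, so start sites, exons, introns and UTRs were not told apart. No genome sequence was used here, so the planned motif search was not run and no sequence is printed. All 9 genes are named, with at most 6 regions each by the lower Osa-GFP fold; regions with peaks of 1 library of a genotype were named after their values were seen, and other pathway genes by most specific regions. The genes, lists and windows were chosen with earlier results of these data known. Peak numbers were compared by an exact permutation test over the 4 libraries. Intervals are 95% Wilson intervals. Alternatives covered thresholds, windows, assignment, overlap, merging, the control rule and each library left out.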

Additional observations from a re-analysis of the deposited data

How the results depend on the processing

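The main count of 26 Osa-GFP-specific regions at the 9 genes was 15 when peaks under a −log10 q of 10 were dropped. That limit dropped yw peaks as well, so these 15 included regions shared in the full lists, at Egfr, Raf, cic and aop. The count was also 15 when each region was given to the gene with the nearest end, and 15 when peaks up to 500 bp apart were merged. It was 40 when a region was removed only if both yw libraries held a peak. With the 774 peaks of best q from each list the count was 4, at 3 of the 9 genes in place of 6. Of these 4, only the Egfr region from 21541162 to 21541575 was among the 26, since yw peaks were cut as well. Leaving out a library gave 26 to 40 regions, the highest without yw replicate 2, at 6 to 7 genes. Each such run loosened the rule: a peak of 1 Osa-GFP library sufficed, or only 1 yw library could remove a region. The count could therefore hardly fall. The causes were not tested. Under the 14 alternatives Egfr and Raf had a specific region in all, cic in 13, aop and edl in 11, Sos in 9, drk in 1, and Ras85D and rl in none. The number ranged from 2 to 10 at Egfr, 1 to 17 at Raf, 0 to 8 at cic and 0 to 4 at aop. The 14 alternatives are not separate checks. Wider windows, a library left out and removal only by both yw libraries could hardly lower a count. The q limits and the equal lists dropped yw peaks too. A shared region could then count as specific, as at Raf and aop with equal lists. Without yw replicate 1 every gene kept its main count. Without yw replicate 2 every gene had the same count as under removal only by both yw libraries. The difference of 36.5 peaks stayed positive under every alternative run, from 3.5 with equal list lengths to 47.5 without yw replicate 2; no setting can bring its exact p below 0.333. With the replicate number as a block it was 36.5 (differences of 47 and 26, exact sign-flip p = 0.5). The labels do not say that the numbers pair libraries; deviations of same-numbered libraries from their group means correlated at -0.18 over the peak numbers of 13922 gene windows, which share depth and overlap. Crossing the pairs, chosen after seeing the data, must give the same mean of 36.5 by arithmetic (exact sign-flip p = 0.5). With either pairing, 0.5 is the smallest p this sign-flip test can give, so neither run can decide the question. The lowest listed summit was 4 fragments in both Osa-GFP libraries and yw replicate 2, and 3 in yw replicate 1, whose background was the lowest of the 4. How far depth shaped the lists was not tested.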
